A study of Mus musculus with 159 samples.

Results

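This report describes 10 mouse genes of bile acid synthesis, conjugation, transport and control: Cyp7a1, Cyp7b1, Cyp8b1, Cyp27a1, Hsd3b7, Baat, Slc10a1, Abcb11, Nr1h4 and Nr0b2. They were chosen by gene symbol and not by any measured value, though earlier results of these data were known. The value table holds 13983 probes, of which 13181 carry 1 gene symbol, for 9704 genes. It has 12 probes for 9 of the 10 members, and Nr0b2 was not analysed here. Cyp27a1 has 3 probes and Hsd3b7 has 2, and each of these genes is led by its probe with the highest mean value over the liver arrays.

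The arrays hold liver and prefrontal cortex (PFC) RNA of female C57BL/6J mice, labelled as 2.5 months old, with 1 mouse per array. The paper instead gives starting ages that were higher in the first 2 tests named below than in the other tests. It also describes tests of unequal length, so age at death was not matched between tests. In 3 drinking tests mice had 20% ethanol: the continuous chronic choice between an ethanol and a water bottle (Chronic), the same choice open every other day (Chronic Intermittent, CI), and a single bottle for a limited time each day (Drinking in the Dark, DID). Their controls had water alone. In the fourth test mice had 2 injections of lipopolysaccharide, a bacterial endotoxin (LPS, 1 mg/kg), 1 week apart, and were killed 1 week later. The controls of that test are labelled water and described as saline injected. Every test and tissue had 10 treated and 10 control mice, apart from 9 controls in the Chronic PFC set, for 80 liver and 79 PFC arrays. Drinking mice were killed the day after their last ethanol. DID mice lived on a reversed light cycle and were killed in the dark phase, whereas all others were killed in the light phase. Ethanol was taken by choice, so its dose differed between mice.

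Bile acids are made from cholesterol in hepatocytes. In the classic route Cyp7a1 takes the first and rate-limiting step, and in the alternative route Cyp27a1 oxidizes the side chain and Cyp7b1 the ring. Hsd3b7 acts on the ring in both routes, Cyp8b1 adds the hydroxyl group that makes cholic acid, and Baat joins bile acids to taurine or glycine. Slc10a1 brings bile acids from blood into the hepatocyte and Abcb11 pumps them into bile. The nuclear receptor Nr1h4 (FXR) senses bile acids and induces Abcb11 and Nr0b2 (SHP), and SHP represses Cyp7a1 and Cyp8b1.

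In GRCm38.p6 the genes lie at chr4:6265612-6275632 (Cyp7a1), chr3:18071944-18243890 (Cyp7b1), chr9:121914356-121916305 (Cyp8b1), chr1:74713148-74737897 (Cyp27a1), chr7:127800609-127803802 (Hsd3b7), chr4:49489416-49507915 (Baat), chr12:80953185-80968705 (Slc10a1), chr2:69238282-69342616 (Abcb11), chr10:89454234-89533645 (Nr1h4) and chr4:133553376-133556686 (Nr0b2).

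RefSeq promoters were at hand for 7 of the 10 members. The sequences printed here are the 250 bases before the start site of Hsd3b7, the member called under LPS, of Cyp8b1, a member whose change in CI was among the largest, and of Abcb11, the transporter that FXR induces. They lie at chr7:127800359-127800608 on the plus strand, chr9:121916306-121916555 on the minus strand and chr2:69342617-69342866 on the minus strand of GRCm38.p6, and each is written 5′ to 3′ in the direction of its gene. Capitals mark matches to the motifs named after them.
Hsd3b7: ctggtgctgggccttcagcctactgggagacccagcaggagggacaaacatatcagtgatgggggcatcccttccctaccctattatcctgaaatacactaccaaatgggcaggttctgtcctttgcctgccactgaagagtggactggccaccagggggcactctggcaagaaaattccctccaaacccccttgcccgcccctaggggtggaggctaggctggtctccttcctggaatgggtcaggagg
Cyp8b1: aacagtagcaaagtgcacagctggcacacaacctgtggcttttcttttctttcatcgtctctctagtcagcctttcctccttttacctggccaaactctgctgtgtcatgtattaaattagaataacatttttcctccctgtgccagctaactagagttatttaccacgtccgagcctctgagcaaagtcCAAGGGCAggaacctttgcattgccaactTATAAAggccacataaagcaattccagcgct
Abcb11: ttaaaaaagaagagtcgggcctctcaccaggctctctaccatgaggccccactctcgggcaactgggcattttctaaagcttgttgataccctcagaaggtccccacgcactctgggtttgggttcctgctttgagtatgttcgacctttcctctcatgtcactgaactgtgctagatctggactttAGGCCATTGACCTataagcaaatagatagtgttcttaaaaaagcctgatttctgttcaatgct
The search covered 6 motifs on both strands: the inverted repeat that FXR is known to bind (AGGNCA, any 1 base, then TGACCT), the LRH-1 motif CAAGGNCA, the nuclear receptor motif AGGTCA, the E-box CACGTG and the D-box TTATGTAA of the clock factors, and the TATA motif TATAAA. The Abcb11 window held the inverted repeat 63 bases before the start, which 0.0335% of 32851 promoter windows of the same length hold. An AGGTCA match on the other strand lies inside it, and 14% of windows hold that motif. The open base of AGGNCA is C in the Abcb11 window, so a repeat with AGGTCA on both sides would not match there. The share of windows given for the inverted repeat is that of the looser pattern. The Cyp8b1 window held the LRH-1 motif 60 bases before the start and the TATA motif 31 bases before it, which 5.53% and 12.4% of windows hold. The Hsd3b7 window held none of the 6. Of all windows, 6.02% hold the E-box and 0.819% the D-box. A match says only that these letters are in the window.

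All levels are on the log2 scale that the authors' variance-stabilizing transform and quantile normalization gave. That transform departs from a plain log2 at low signal, so a fold is 2 to the power of the change on this scale and not a measured ratio of RNA. Array medians are alike within a set of 1 test and tissue and differ between sets, so groups were compared in level within a set only. Elsewhere a level only places a probe on the scale of its set, and levels of different probes were not tested against each other. A change is the treated mean less the control mean on the log2 scale, from limma's test on all probes of the set. A member is called where its p adjusted by Benjamini-Hochberg over all probes was under 0.05, and is DE where its unadjusted p was under 0.05. In liver 6 of 7 hepatocyte markers were measured, with array means from 13.3 to 14.2. Of 7 genes listed for cholangiocytes only Krt8 was measured, which is not particular to cholangiocytes, so that list could not report on them. In tissue RNA, fewer cells of a type and less RNA per cell cannot be told apart. The median change over all probes lay between -0.0015 and 0.00019 in the 4 liver sets. In DID the liver arrays lay in 3 clusters over all probes, of 5 control and 5 treated, 2 and 2, and 3 and 3 arrays, and the values below are also given with that cluster as a term.

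In the Chronic test the 2 enzymes that open the routes were lower in treated liver. Cyp27a1 fell and was the only member called, and Cyp7a1 had the largest change of the members without being called. Of the 9 members, 1 was called, against 1.5% of 10068 probes, and 4 were DE, all lower, against 12.1% of probes DE in either direction and 5.8% DE lower. Of the 9 members 6 had a negative change and 3 a positive one, with a median of -0.0098 against -0.00039 over all probes.

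Cyp27a1 ranged in the Chronic controls from 13.66 to 14.01 with a median of 13.87 (n = 9, since 1 control value was blank in the deposited table), and in treated mice from 13.33 to 13.72 with a median of 13.58 (n = 10). All 10 treated mice lay below the control mean, and the ranges overlapped slightly. The fall was 0.30 (SE 0.052), with an adjusted p of 0.00588 in limma. The second probe fell by 0.24 (SE 0.051), with a limma adjusted p of 0.0238, and the third probe had a change of -0.16 (SE 0.071), with an adjusted p of 0.362. The blank control of the first 2 probes gave the lowest control value of the third, 13.04.

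Cyp7a1 ranged in the Chronic controls from 12.09 to 13.81 with a median of 13.15 and in treated mice from 10.53 to 12.93 with a median of 12.25. The groups overlapped, yet all 10 treated mice lay below the control mean. The change was -1.02 (SE 0.27), a fold of 0.494, with an unadjusted p of 0.00125 and a limma adjusted p of 0.0662. It was called in 2 of the 20 fits that left out 1 array, where its adjusted p ran from 0.0318 to 0.133. The 2 fits were those without control 4, the lowest control, at 0.0373, and without treated 9, at 0.0318.

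Baat ranged from 12.33 to 12.72 in the Chronic controls (median 12.50) and from 12.13 to 12.53 in treated mice (median 12.35). Of 10 treated mice, 9 lay below the control mean. Its change was -0.18 (SE 0.055), with a limma adjusted p of 0.126. Cyp7b1 ranged from 10.77 to 12.37 in controls (median 11.63) and from 11.04 to 11.74 in treated mice (median 11.35). The treated mice lay inside the control range, and the change was -0.31 (SE 0.14), with an unadjusted p of 0.0379, a limma adjusted p of 0.362 and a permutation p of 0.0563.

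The other 5 members were not DE in the Chronic set. Hsd3b7, high in both groups of this set at means of 14.81 in each, had a change of -0.0067 (SE 0.057). Cyp8b1 measured 0.12 (SE 0.22), Abcb11 0.14 (SE 0.13), Nr1h4 -0.0098 (SE 0.075) and Slc10a1 0.054 (SE 0.073). The interval of 2 SE on each side ran from -0.12 to 0.11 for Hsd3b7, and from -0.32 to 0.56 for Cyp8b1, whose values spread more. Beside the Chronic changes, all 5 measured periportal genes of a list of 8 were lower, 1 of them DE, with array means of 13.5 to 14.2 in controls and 13.4 to 13.9 in treated mice. Of 11 measured clock genes 3 were DE higher and 2 DE lower, of 7 pericentral genes 2 were DE lower, of 6 hepatocyte markers 1 and of 6 stellate cell markers 1 were DE lower, and of 5 sinusoidal endothelium markers 2 were DE higher, with none called. The array means of the clock genes ran from 10.29 to 10.56 in controls and from 10.32 to 10.56 in treated mice, and those of the pericentral genes from 11.25 to 12.15 and from 11.74 to 12.13. The part of these genes in the Chronic result was not tested.

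**Figure D1:**
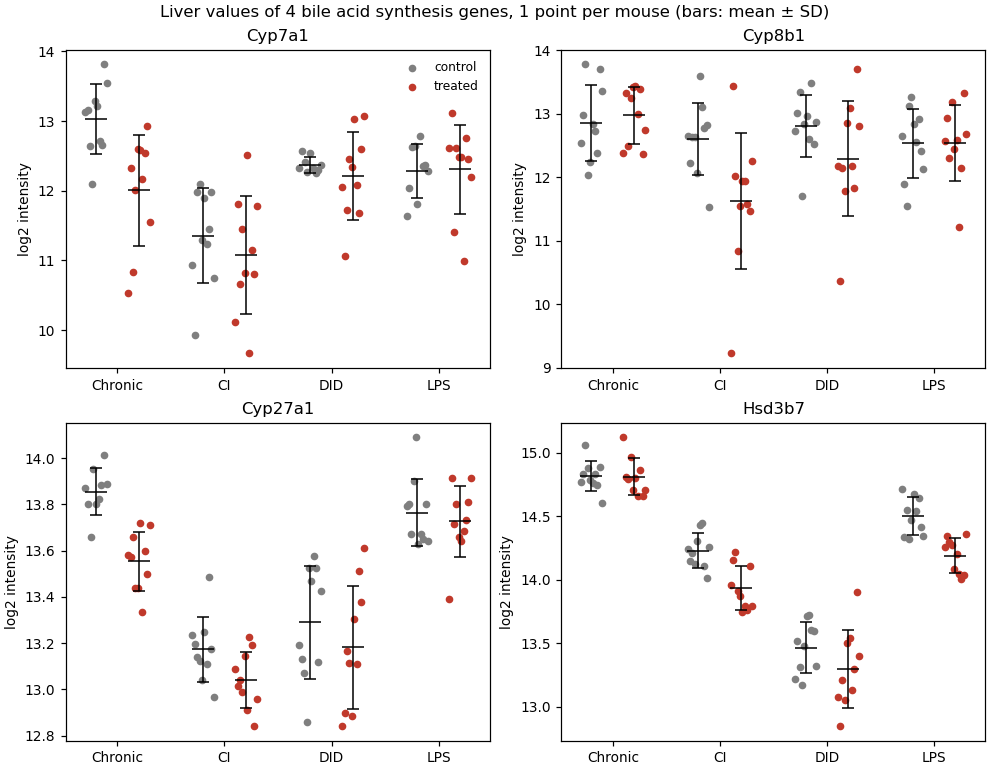
Deposited log2 intensity (vertical axis) of Cyp7a1, Cyp8b1, Cyp27a1 and Hsd3b7 in liver, by test (horizontal axis), with 1 point per mouse and the mean with its SD as black bars, controls in grey and treated mice in red. Treated Chronic mice lie below the control mean in Cyp27a1 and Cyp7a1, and treated CI and LPS mice in Hsd3b7. Levels are comparable only within a test.

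In the CI test the enzyme that both routes share, Hsd3b7, was lower in all 10 treated livers than the control mean, and Cyp8b1 had the largest change. By their lead probes no member of 9 was called, against 0.23% of 9561 probes, and 3 were DE, all lower, against 10.5% of probes DE in either direction and 5.24% DE lower. With limma, 7 of 9 members had a negative change, and the median was -0.13 against 0.00019 over all probes.

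Hsd3b7 ranged in the CI controls from 14.01 to 14.45 with a median of 14.23, and in treated mice from 13.75 to 14.22 with a median of 13.89. The ranges overlapped. The change of its lead probe was -0.30 (SE 0.066), with an unadjusted p of 0.000201 and a limma adjusted p of 0.0575. Its second probe fell by 0.32 (SE 0.055), with a limma adjusted p of 0.0138, and all 10 treated mice were below the control mean there too. The lead probe was called in 3 of 20 fits without 1 array, where its adjusted p ran from 0.0223 to 0.107, and the second probe in 20 of 20.

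Cyp8b1 ranged in the CI controls from 11.53 to 13.60 with a median of 12.64, and in treated mice from 9.23 to 13.44 with a median of 11.76. The treated mice thus spanned 4.21 log2 units and the controls 2.07, with 9 of 10 treated mice below the control mean. The change was -0.98 (SE 0.35), a fold of 0.508, with an unadjusted p of 0.0115 and a limma adjusted p of 0.290. Cyp27a1 had a CI change of -0.13 (SE 0.056), with an unadjusted p of 0.0288 and a limma adjusted p of 0.386, and its probes 2 and 3 measured -0.074 and -0.092, neither DE.

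Cyp7a1, with controls from 9.93 to 12.10 (median 11.37) and treated mice from 9.67 to 12.51 (median 10.99), had a CI change of -0.28 (SE 0.32) with a limma adjusted p of 0.832. Its interval ran from -0.91 to 0.36, so large changes either way could not be told from none. Cyp7b1 measured -0.21 (SE 0.12), Baat -0.084 (SE 0.067), Slc10a1 -0.076 (SE 0.043), Nr1h4 0.048 (SE 0.075) and Abcb11 0.025 (SE 0.086), none of them DE. In CI, 9 of 11 measured clock genes of a list of 17 had a positive change, 5 of them DE and 1 called, with array means of 8.71 to 9.35 in controls and 9.23 to 9.45 in treated mice. Several members are known to follow the clock, and the part of clock timing in these changes was not tested. CI control 2 stood apart, with 3 of 15 clock probes blank and a mean of 8.576 over the rest. Over the clock probes the other controls ran from 8.946 to 9.106 and the treated mice from 8.974 to 9.287. Of the other marker lists in CI, 1 of 5 stellate cell markers and 1 of 7 pericentral genes were DE lower and 1 of 5 sinusoidal endothelium markers DE higher.

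In DID no member was DE by its lead probe. Of 9 members 0 were called, against 0.0224% of 8924 probes, and 0 were DE, against 5.19% of probes. The members had a median change of -0.11 against -0.00090 over all probes, with 8 negative and Baat alone positive. Cyp8b1 ranged in the DID controls from 11.71 to 13.49 with a median of 12.85, and in treated mice from 10.37 to 13.70 with a median of 12.17. Its change was -0.51 (SE 0.30), with a limma adjusted p of 1. The second Cyp27a1 probe was DE, at -0.19 (SE 0.081) with a limma adjusted p of 0.838.

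The spread of Baat in DID followed the array clusters. In the cluster of 3 and 3 arrays Baat lay between 10.54 and 11.05, in that of 5 and 5 between 11.17 and 12.04, and in that of 2 and 2 between 11.93 and 12.18. Both groups were spread alike over the clusters, which were drawn from these same values, so this is a description. With the cluster as a term, chosen after seeing the data, Baat measured 0.17 (SE 0.080, p = 0.0457 unadjusted) and Hsd3b7 -0.17 (SE 0.080, p = 0.0463 unadjusted) in limma, with adjusted p of 0.488 and 0.490, against 9.91% of probes DE in that fit. Cyp7a1 in the DID controls ran only from 12.25 to 12.57 (n = 9, with 1 value blank), against 11.06 to 13.07 in the treated mice (n = 10), and its change was -0.16 (SE 0.20). Blanking of a far value narrows a group, so the difference in spread was not tested.

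**Figure D2:**
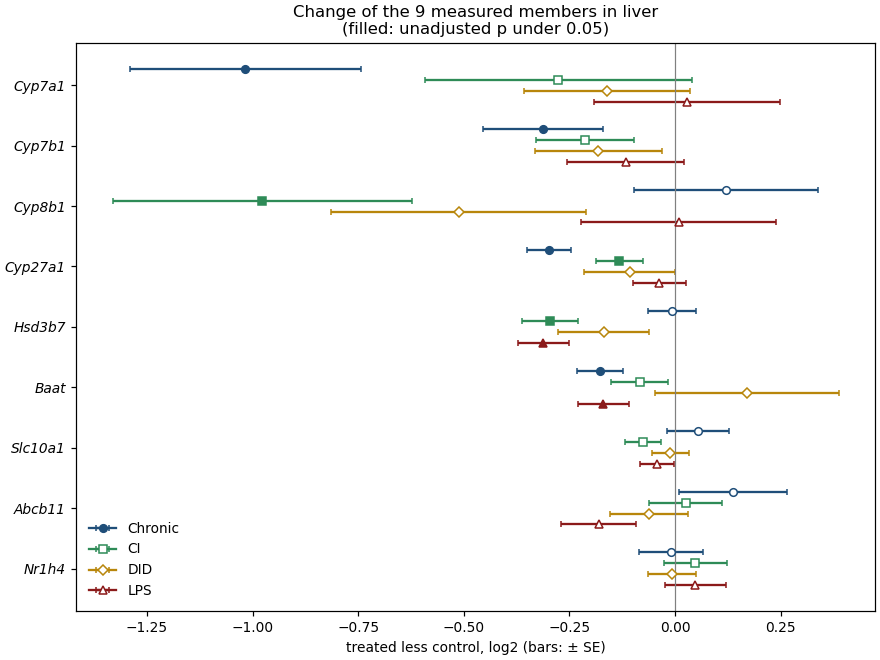
Change of each of the 9 measured members in liver, by test, as treated less control on the log2 scale (horizontal axis) with SE bars; filled symbols have an unadjusted p under 0.05. Every filled symbol lies below 0, and the largest are Cyp7a1 in Chronic at -1.02 and Cyp8b1 in CI at -0.98.

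In the LPS test, 1 week after the second injection, Hsd3b7 fell, and the changes of Cyp7a1 and Cyp8b1 were near 0. Of 9 members 1 was called, against 0.555% of 9550 probes, and 2 were DE, both lower, against 11.6% of probes DE in either direction and 5.38% DE lower. The median change was -0.042 against -0.0015 over all probes, with 6 members negative and 3 positive.

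Hsd3b7 ranged in the LPS controls from 14.32 to 14.72 with a median of 14.51, and in treated mice from 14.01 to 14.36 with a median of 14.23. The ranges barely overlapped, and all 10 treated mice were below the control mean. The fall was 0.31 (SE 0.060), a fold of 0.806, with a limma adjusted p of 0.0152. Its second probe measured -0.32 (SE 0.077), with a limma adjusted p of 0.0523.

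Baat ranged in the LPS controls from 11.46 to 11.94 (median 11.73) and in treated mice from 11.45 to 11.73 (median 11.61, n = 9). All 9 treated values were below the control mean, and the change was -0.17 (SE 0.060), with a limma adjusted p of 0.225. Abcb11 ranged from 11.47 to 12.22 in controls and from 11.27 to 11.87 in treated mice, and its change of -0.18 (SE 0.089) had an unadjusted p of 0.0547. Cyp7a1 measured 0.029 (SE 0.22) and Cyp8b1 0.0082 (SE 0.23), with intervals from -0.41 to 0.47 and from -0.45 to 0.47. Cyp27a1 measured -0.038 (SE 0.063), Cyp7b1 -0.12 (SE 0.14), Nr1h4 0.048 (SE 0.072) and Slc10a1 -0.042 (SE 0.040), none of them DE.

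In LPS liver the neutrophil and blood markers moved with the treatment. Of 8 such markers 5 were measured, all 5 had a positive change, 4 were DE and 1 was called, with array means of 9.61 to 10.2 in controls and 10.02 to 11.02 in treated mice. Of 11 measured clock genes, 8 had a positive change, with 5 DE higher, 2 DE lower and 3 called, and array means of 8.77 to 9.69 in controls against 9.62 to 9.84 in treated mice. Of the Kupffer cell and sinusoidal endothelium markers 6 and 5 were measured, and 1 of each was called, higher. Of 7 measured pericentral genes 6 had a negative change and 2 were DE lower, with array means of 11.15 to 12.00 in controls and 11.15 to 11.46 in treated mice. Krt8 was DE lower with a change of -0.20 (SE 0.077) and a limma adjusted p of 0.291. It was the only gene measured of the cholangiocyte list and is not particular to that cell type. Of 4 measured stellate cell markers 3 had a positive change and 2 were DE higher, and of 5 periportal genes 1 was DE higher. LPS control 1 stood apart, with 7 of 15 clock probes blank and a mean of 8.568 over the rest. Over the clock probes the other controls ran from 9.312 to 9.529 and the treated mice from 9.453 to 9.651. In LPS control 1 the Cyp7a1 value was blank too, its Nr1h4 was the lowest control at 11.64 and its Hsd3b7 the highest at 14.72. The part of these shifts in the LPS results was not tested, while Hsd3b7 stayed called without that array.

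The members with several probes were also compared probe by probe. The 3 probes of Cyp27a1 were negative in Chronic, CI and DID, and their LPS changes ran from -0.038 to 0.013. The 2 probes of Hsd3b7 lay between -0.32 and -0.30 in CI and LPS. In Chronic the second Hsd3b7 probe measured 0.088 (SE 0.063), opposite in sign to the lead probe, and neither was DE.

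**Figure D3:**
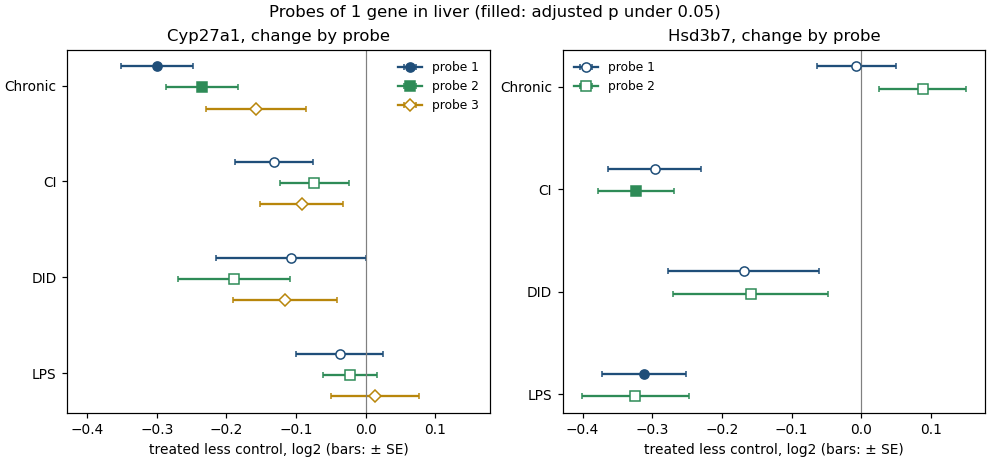
Change by probe of Cyp27a1 (left) and Hsd3b7 (right) in liver, as treated less control on the log2 scale with SE bars; the vertical axis gives the test and filled symbols have an adjusted p under 0.05. Cyp27a1 is called by 2 probes in Chronic, and Hsd3b7 by probe 2 in CI and by probe 1 in LPS.

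Differences of a change between tests were tested in limma over the arrays of the 4 liver sets. By lead probes no member was called in any of the 6 pairs of tests, against 0.187% of probes for Chronic less CI, 0.093% for Chronic less DID, 1.3% for Chronic less LPS, 0.0114% for CI less DID, 0.0545% for CI less LPS and 0.148% for DID less LPS. The Chronic change of Hsd3b7 exceeded that in CI by 0.29 (SE 0.089), with a limma adjusted p of 0.185, and that in LPS by 0.31 (SE 0.085), with a limma adjusted p of 0.0554. On its second probe the differences were 0.41 (SE 0.085, adjusted p = 0.0149 in limma) and 0.41 (SE 0.10, adjusted p = 0.0313 in limma). The Hsd3b7 changes in CI and LPS differed by 0.015 (SE 0.092) on the lead probe, with an interval from -0.17 to 0.20.

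For Cyp8b1 the Chronic change exceeded that in CI by 1.10 (SE 0.43), with a limma adjusted p of 0.356. For Cyp7a1 the Chronic change was -1.05 (SE 0.37) against that in LPS, with a limma adjusted p of 0.147, and -0.86 (SE 0.35) against that in DID, with a limma adjusted p of 0.620. For Cyp27a1 the Chronic change was -0.26 (SE 0.084) against that in LPS, with a limma adjusted p of 0.105. So the members that were called or DE in a single test were not shown to differ between tests by their lead probes.

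Over the 3 drinking tests, each weighted alike, Cyp27a1 was the member called, against 1.68% of 8518 probes. Its mean change was -0.18 (SE 0.046), with a limma adjusted p of 0.0249, and its second probe measured -0.17 (SE 0.037) with a limma adjusted p of 0.00620. The third Cyp27a1 probe measured -0.12 (SE 0.041) and was not called, with a limma adjusted p of 0.129. The other DE members were Hsd3b7 at -0.16 (SE 0.048), Cyp7b1 at -0.24 (SE 0.082), Cyp7a1 at -0.48 (SE 0.16) and Cyp8b1 at -0.46 (SE 0.18), with limma adjusted p of 0.0784, 0.144, 0.129 and 0.222, against 12% of probes DE. The 4 remaining members measured between -0.030 and 0.033. Without the Chronic set the mean change of Cyp27a1 was -0.12, and without the CI set it was -0.20, with limma adjusted p of 0.590 and 0.118.

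In Chronic liver Slc10a1 had means of 9.05 and 9.10, near the median value of that set, 9.17. In CI, DID and LPS it lay near the bottom of the scale, at means of 8.11 to 8.28. The lowest values of these sets were 7.704 to 7.96. Signal this close to background can understate a change, and none of its changes was DE. Nr1h4 was measured well above the bottom of the scale, at means of 11.5 to 12.7, and its 4 changes lay between -0.0098 and 0.048. Of the 2 transporters, Abcb11 was at means of 10.7 to 12.1 and was not DE in any set.

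The mice of a group also varied together in some members. Over 20 Chronic livers, with each value taken less its group mean, Cyp7b1 and Cyp8b1 had a Pearson r of 0.741 (permutation p = 0.00029, adjusted p = 0.0249) and a Spearman rho of 0.615 (permutation p = 0.00721, adjusted p = 0.29), and an r of 0.603 without the 2 mice farthest from the median of Cyp7b1. In CI the same pair had an r of 0.537 (permutation p = 0.00174, adjusted p = 0.0998) and a rho of 0.573 (permutation p = 0.00843, adjusted p = 0.29), and an r of 0.637 without 2 mice. In LPS, Cyp7b1 and Abcb11 had an r of -0.781 (permutation p = 0.00012, adjusted p = 0.0206) and a rho of -0.806 (permutation p = 0.0001, adjusted p = 0.0172), and an r of -0.688 without 2 mice. The other sets did not all repeat these values. Cyp7b1 and Abcb11 had an r of 0.113 in Chronic, -0.331 in CI, and -0.472 and 0.904 in DID clusters of 10 and 6 arrays. The 0.904 had a permutation p of 0.278 and a rho of 0.486, and r was -0.633 without 2 of those 6 arrays. Cyp7b1 and Cyp8b1 had an r of 0.247 in LPS, and 0.0549 and 0.617 in those DID clusters. This family held 172 relations, with the DID arrays taken only within clusters of at least 6. The only 2 with a Pearson adjusted p under 0.05 were Cyp7b1 with Cyp8b1 in Chronic and Cyp7b1 with Abcb11 in LPS. Members of 1 array share its RNA and hybridization.

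**Figure D4:**
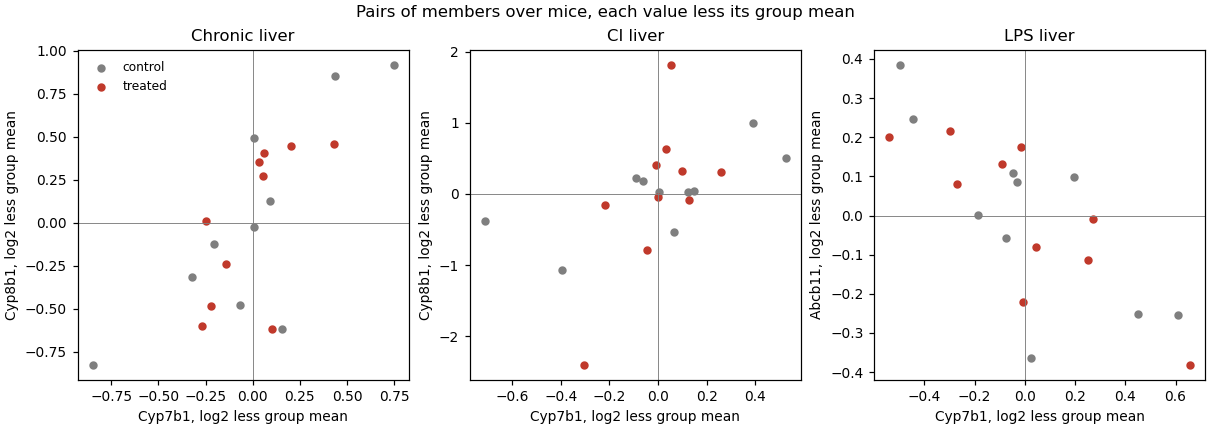
Value of 2 members in each mouse, each less its group mean on the log2 scale, for Cyp7b1 and Cyp8b1 in Chronic and CI liver and for Cyp7b1 and Abcb11 in LPS liver; grey points are controls and red points treated mice. Cyp8b1 rises with Cyp7b1 in the first 2 panels (r = 0.741 and 0.537), and Abcb11 falls with it in the third (r = -0.781).

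The wider genes of the pathway were taken from 3 lists: other synthesis genes (14), other bile acid and sterol transporters (16), and other control and conjugation genes (17). These lists were drawn up with earlier results of these data known. The shares of all probes beside their counts are therefore a description and no test of an excess. In Chronic 10 of the transport genes were measured, 4 were DE and all 4 higher, against 6.31% of probes DE higher, and 1 was called, against 0.894% called higher. Ephx1, an epoxide hydrolase also described as a bile acid carrier, rose by 0.45 (SE 0.083), with a limma adjusted p of 0.00808. Abcc3, which exports bile acids into blood, measured 0.19 (SE 0.060), and Abcb4, which moves phospholipid into bile, 0.16 (SE 0.060). The sterol exporter Abcg8 measured 0.26 (SE 0.097). None of these last 3 was called.

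In CI 4 of 11 measured transport genes were DE, all higher, against 5.23% of probes DE higher and with none called: Abcg8 at 0.36 (SE 0.10), its partner Abcg5 at 0.36 (SE 0.11), Abcc3 at 0.26 (SE 0.084) and Ephx1 at 0.31 (SE 0.15). In DID 3 of 10 were DE, all higher, against 2.99% of probes DE higher, with none called: Abcg5 at 0.46 (SE 0.095), Ephx1 at 0.33 (SE 0.099) and Abcg8 at 0.34 (SE 0.13). All 10 had a positive change in DID, with a median of 0.086 against -0.00090 over all probes. In LPS 0 of 11 were DE, against 11.6% of probes in either direction. Whether the transport changes differed between drinking and LPS was not tested.

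**Figure D5:**
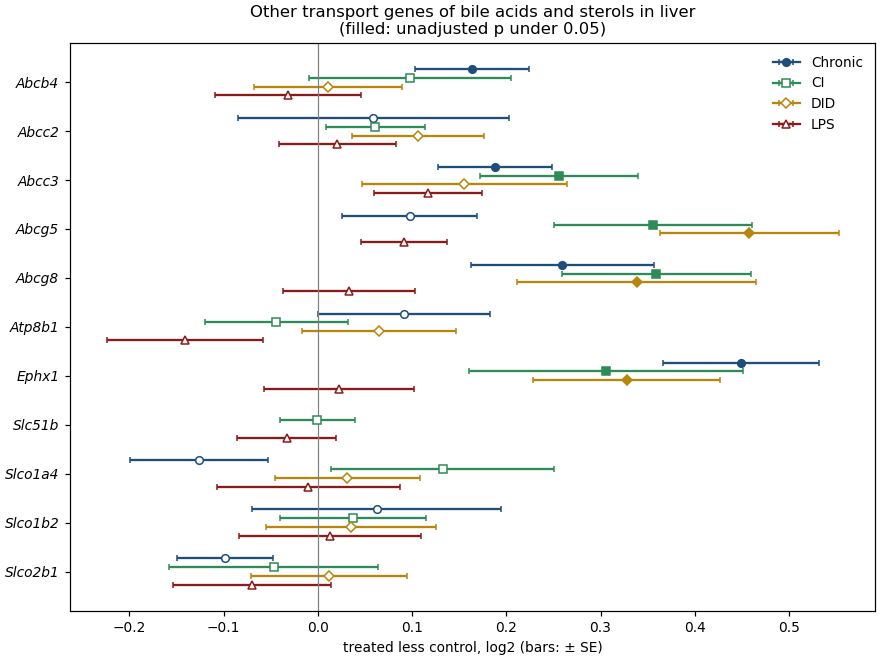
Change in liver of the other transport genes, by test, as treated less control on the log2 scale (horizontal axis) with SE bars; filled symbols have an unadjusted p under 0.05. The filled symbols are Ephx1, Abcc3, Abcb4, Abcg5 and Abcg8 in drinking tests, all above 0, the largest being Abcg5 in DID at 0.46 and Ephx1 in Chronic at 0.45.

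Of the other synthesis genes Cyp2c70, which in mice makes muricholic acids, measured -0.20 (SE 0.057) in Chronic, -0.24 (SE 0.071) in DID and -0.19 (SE 0.068) in LPS, each DE and none called. In CI Cyp2c70 measured -0.19 (SE 0.094) and was not DE. Acox2, an oxidase of the bile acid side chain, measured -0.22 (SE 0.069) in CI and -0.22 (SE 0.069) in LPS, DE in both. Hsd17b4, which acts on the side chain in the peroxisome, measured 0.17 (SE 0.057) in Chronic and 0.14 (SE 0.060) in CI. In all, 4 of 9 measured synthesis genes were DE higher and 1 DE lower in Chronic, 1 and 1 of 11 in CI, 0 and 1 of 10 in DID, and 0 and 2 of 10 in LPS, with none called. Over all probes 6.31% were DE higher and 5.8% DE lower in Chronic, 5.23% and 5.24% in CI, 2.99% and 2.2% in DID, and 6.21% and 5.38% in LPS. Of the control list, Rxra, the partner of FXR, measured -0.10 (SE 0.033) in Chronic, the xenobiotic receptor Nr1i2 0.19 (SE 0.080) in CI and the hepatocyte factor Prox1 -0.13 (SE 0.046) in LPS. Of the 12, 12, 11 and 12 genes measured from that list in Chronic, CI, DID and LPS, 2, 1, 0 and 1 were DE, against 12.1%, 10.5%, 5.19% and 11.6% of all probes, and none was called.

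In PFC 3 members were measured, Cyp7b1, Cyp27a1 and Hsd3b7. Cyp7b1 acts on neurosteroids in brain. None was called in any of the 4 sets, against 0%, 0%, 0% and 0.113% of probes for Chronic, CI, DID and LPS. Of the 3 members 0 were DE in Chronic, CI and DID, against 4.38%, 5.21% and 3.88% of probes, and 1, Hsd3b7, was DE in LPS, against 9.58%. It ranged from 9.15 to 9.33 in controls (median 9.23) and from 9.23 to 9.45 in treated mice (median 9.34), with 9 of 10 treated mice above the control mean. Its change was 0.096 (SE 0.029), with a limma adjusted p of 0.218, and its second probe measured 0.016 (SE 0.036). In liver the same member fell, but this difference between tissues was not tested.

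Cyp27a1 in the CI PFC controls ran from 8.12 to 9.30, since controls 5 and 6 were at 9.11 and 9.30 and the others at 8.40 or less. Hsd3b7 was also highest in these 2 controls, at 9.53 and 9.32, with the others at 9.11 or less. The CI change of Cyp27a1 in PFC was -0.18 (SE 0.13) with all arrays and 0.016 (SE 0.049) without those 2 controls, neither DE. Cyp7b1, at means of 9.31 to 9.95 over the PFC groups, had changes between -0.043 and 0.027, none DE.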

How the data were processed

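Total RNA of liver and PFC was labelled with biotin and hybridized to Illumina mouse bead arrays. The authors applied a variance-stabilizing transform to the bead signals with lumi (version not given in the sources used here) and quantile normalization (array medians are alike within a set and differ between sets), kept transcripts detected on most arrays and blanked outlying values, and deposited log2 values, which were used as given. Single values blanked in this way narrow a group and were left missing. The 159 columns of the deposited bead signal tables were not used, since their names do not tie them to a mouse. Treated and control arrays of each set were compared with limma 3.58.1 in R 4.3.3, without covariates, as in the study's methods, with p adjusted by Benjamini-Hochberg over all probes of the set. Tests over several sets used probes with at least 8 values per group. Permutation tests drew 1e+05 resamples where enumeration was not possible. The scripts were tested on simulated data.

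The members and lists were chosen with earlier results of these data known. All members are named, and of the wider lists those DE in a liver set, smallest p first, at most 6 per set. Abcg8 in Chronic and Ephx1 in CI lie outside this rule and were named after their values were seen. Controls and treated mice carry numbers, but in no set did every same-numbered pair correlate over 0.1 in its deviations, so no pairing was used. In PFC 9 of 10 pairs did in CI (median 0.258) and 6 of 9 in Chronic (median 0.166), against 0 to 3 of 10 in the liver sets. Replicates are separate mice. The depth of an array is not a count, and the number of mice limits the precision. Alternatives were the replicate number as a block, probes without blanks, array weights, median centring, a trended robust prior, other probes, and leaving out each array or test. Promoter sequences and gene positions come from RefSeq, GRCm38.p6.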

Additional observations from a re-analysis of the deposited data

Results flagged for a closer look

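The second probe of Hsd3b7 had a Chronic change that exceeded the CI change by 0.411 and the LPS change by 0.412, both called by limma's test of the difference, at adjusted p of 0.0149 and 0.0313. On the lead probe the same differences were 0.29 and 0.31, with limma adjusted p of 0.185 and 0.0554. In the LPS treated livers 1 mouse, treated 1, had a Cyp27a1 value of 13.39, apart from the next lowest at 13.64 by a gap that was 0.476 of the group's range. It was 1 of 96 groups of member values checked. Chance alone flags about 1 in 20 groups of unfiltered values. Outlying values had already been blanked here, so that rate does not apply and no conclusion is drawn from the count.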

How the results depend on the processing

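The direction of each called member held under each alternative in which it could be tested. With the replicate block, 0 members were called in Chronic and 0 in LPS: Cyp27a1 had an adjusted p of 0.0567 and Hsd3b7 of 0.0555 in limma. The deviations of same-numbered arrays had median correlations from -0.155 to 0.033 in the liver sets and -0.115 to 0.258 in the PFC sets. In CI PFC the 0.258 stood against -0.0763 for arrays of other numbers, so there the numbers went with shared deviations. With only probes without a blank, which drop Cyp27a1 in Chronic and Baat in LPS, 0 members were called in Chronic, 1 was DE in LPS, 3 were DE and 0 called in the mean over drinking tests, 0 were DE for Chronic less DID and 1 for Chronic less LPS. With array weights, 2 members were called in Chronic (Cyp7a1 at an adjusted p of 0.0294 joined), 1 in CI, 3 in the drinking mean and 1 for Chronic less LPS, and 1 was DE in DID and 3 for Chronic less DID. The trended robust prior called 1 in CI. The cluster term, added after seeing the data, gave 2 DE in DID. Without the Chronic test the drinking mean had 2 DE and 0 called, and without the CI test 3 and 0. Leaving out 1 array gave 1 to 2 called and 3 to 4 DE in Chronic, 0 to 1 and 2 to 4 in CI, 0 and 0 to 2 in DID, and 1 and 2 to 3 in LPS.

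Directions that reversed belonged to changes that were not DE. They were Hsd3b7 in Chronic by its other probe (0.088), Cyp7a1 in LPS with the block (-0.0042), Cyp27a1 in LPS by probe 3 (0.013), Hsd3b7 in CI PFC with weights (0.038) and, without 2 controls, Hsd3b7 (0.062) and Cyp27a1 (0.016) there. In the drinking mean they were Nr1h4 with weights (-0.011), Abcb11 (-0.018) and Baat (0.043) without Chronic, and Slc10a1 (0.021) and Nr1h4 (-0.0087) without CI. Among differences between tests they were Nr1h4 for Chronic less DID with the block (0.0049), Cyp27a1 for CI less DID with weights (0.017) and Nr1h4 for CI less LPS with weights (0.0028). The cause was not tested. Leaving out 1 array also turned the sign of Hsd3b7 (-0.041 to 0.020) and Nr1h4 (-0.048 to 0.032) in Chronic, Abcb11 in CI (-0.018 to 0.080), Nr1h4 (-0.033 to 0.015) and Slc10a1 (-0.028 to 0.0083) in DID, and Cyp7a1 (-0.060 to 0.18), Cyp8b1 (-0.10 to 0.16) and Nr1h4 (-0.0060 to 0.085) in LPS. Of the member values under the other alternatives 590 kept direction and side of the threshold, 14 reversed, 7 moved past a threshold and 7 no longer passed one.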
